A study of Arabidopsis thaliana with 4 samples.

Results

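The amino acid permeases AAP1 to AAP8 and the lysine and histidine type transporters LHT1 and LHT2 of Arabidopsis thaliana were examined in seedlings given air or ethylene. These 10 genes were chosen by family name, from a table whose air and ethylene values were already known, and each had an entry of its own among the 33538 entries of that table. The choice used the contrast of air with ethylene, so the members' values and calls below are a description and were not tested again. In ethylene AAP3, AAP6 and LHT1 were called higher, none of the other tested members was called lower, and AAP8 was listed at 0. A gene is called here at a q of 0.05 or less in the authors' Cuffdiff test with Benjamini-Hochberg adjustment. Of 10 members 9 were tested and 3 called higher, where 4.79% of all tested entries that name a gene were called higher and 6.50% lower. Transcripts were measured by RNA sequencing in 4 libraries, 2 from seedlings kept in air and 2 from seedlings given ethylene.

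Every library came from a Col line mutated in SRT1 as well as SRT2, which encode sirtuins, a class of protein deacylases, and no wild-type group was analysed here, so every difference is one within the mutant. The seedlings were 3 days old and had been grown in darkness at 24 °C. The final 4 hours were spent in air free of hydrocarbons for one group and with 10 ppm ethylene added for the other. RNA came from whole seedlings, so a fall in the number of cells of a type and a fall in RNA per cell cannot be told apart. The sources used here do not give the kind or position of the lesion in either sirtuin gene. The labels name both sirtuin genes and the title of the deposited table names SRT1 alone; the labels were followed. The transcript of SRT1 was at 3.88 FPKM in air and 3.23 FPKM in ethylene, and that of SRT2 at 1.92 and 2.09 FPKM. FPKM counts fragments relative to transcript length and to library size. How library size was scaled is not given in the sources used here. Without a wild-type level these SRT1 and SRT2 values do not check the labels. Of the etiolated seedling markers, PORA and PORB, the protochlorophyllide oxidoreductases of plastids in dark-grown tissue, stood at 397 and 701 FPKM in air and at 583 and 981 FPKM in ethylene. PIF3, the other marker of this list, went from 51.6 to 136 FPKM. All 3 were called higher, beside 4.79% of all tested entries that name a gene. Under the stricter reading described below, PIF3 alone was called.

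Amino acid permeases sit in the plasma membrane and bring amino acids into cells together with protons. They serve uptake by the root, loading of the phloem, transfer between xylem and phloem, and import into seeds. The LHT proteins belong to the same superfamily but to another branch of it, and LHT1 takes up neutral and acidic amino acids in root epidermis and leaf mesophyll. LHT1 and LHT2 also carry 1-aminocyclopropane-1-carboxylic acid (ACC), the amino acid from which plants make ethylene.

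The predicted proteins of the 10 members ran from 441 residues for LHT2 to 493 residues for AAP2 in the TAIR10.1 annotation of RefSeq. Among the 28 pairs of AAP proteins, identity over aligned residues lay between 47.7% and 89.1%, with a median of 57.1%. AAP2 and AAP4 were the closest pair, at 89.1%. AAP7, which the annotation describes as a nonfunctional transporter, was the most distant AAP, with no more than 51.4% identity to any other. Identity between an AAP and an LHT was 28.9% to 34.4%, whereas LHT1 and LHT2 shared 74.8%. AAP3 and AAP6, whose transcripts were called higher in ethylene, were not each other's closest relatives. AAP3 was closest to AAP4 at 74.0%, AAP6 was closest to AAP1 at 73.1%, and AAP3 and AAP6 shared 58.5% of residues with each other.

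**Figure D1:**
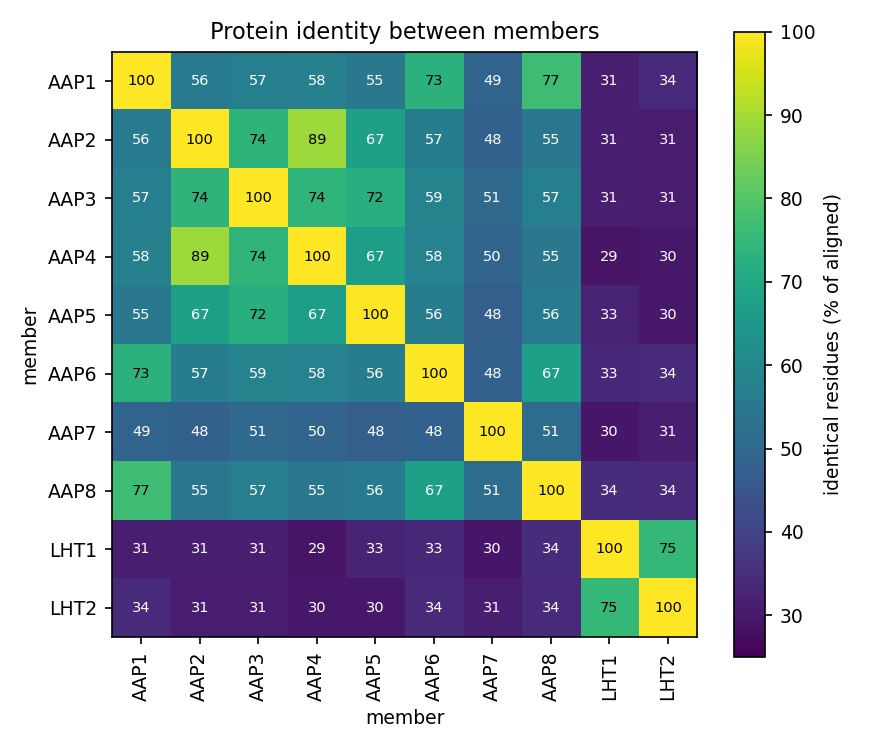
Identity between the predicted proteins of the 10 members, in percent of aligned residues, with each member on both axes and the value written in each cell. AAP2 with AAP4 (89.1%) is the brightest cell off the diagonal, and the LHT1 and LHT2 rows stand apart from the AAP block.

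Similar genes can share sequencing reads, so the longest exact runs common to pairs of member transcripts were found. The transcript with the longest coding sequence stood for each gene. Runs shared with genes outside the members were not searched. Among those genes, AT1G48640 shares 79.7% of residues with LHT1 and AT1G67640 shares 85.5% with LHT2. Between AAP transcripts the longest run was 26 bases, found in AAP2 with AAP4 and in AAP1 with AAP6, and between an AAP and LHT1 or LHT2 it was 14 bases. The LHT1 and LHT2 transcripts shared a run of 41 bases. The sources used here do not give the read length. The runs of these 3 pairs are shown as the longest stretch that a read could match in both genes without a mismatch. The LHT run begins at coding base 109 of LHT1 (chr5:16325206-16325246, plus strand) and at coding base 94 of LHT2 (chr1:8653428-8653468, minus strand). The first AAP run begins at coding base 292 of AAP2 (chr5:2867264-2867289, plus strand) and at coding base 211 of AAP4 (chr5:25551792-25551817, plus strand). The run of AAP1 with AAP6, a called member whose level in air was exceeded 9.18 times by that of AAP1, begins at coding base 826 of AAP1 (chr1:21679593-21679618, plus strand) and at coding base 820 of AAP6 (chr5:20143282-20143307, minus strand). Coordinates are those of TAIR10.1.
LHT1 and LHT2: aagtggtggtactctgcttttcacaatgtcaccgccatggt
AAP2 and AAP4: cttcttagcgactgctacagaaccgg
AAP1 and AAP6: gagaacaaagccatgaaaagagcaag

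The sequence before the start of each gene was also examined. Windows of 250 bases ending just before the annotated transcript start were taken from TAIR10.1 for each member and for 27443 genes in all. A set of 4 short words was searched on both strands: GCCGCC, the core of the GCC box bound by ethylene response factors; ATGTA, a core bound by EIN3-type proteins; CACGTG, the G-box; and GATAA, a core bound by GATA and related factors. The windows of the 3 members called higher in ethylene, AAP3, AAP6 and LHT1, are printed below on the strand of the gene, with matches to any of these words in capitals.
AAP3 (chr1:29077391-29077640, minus strand): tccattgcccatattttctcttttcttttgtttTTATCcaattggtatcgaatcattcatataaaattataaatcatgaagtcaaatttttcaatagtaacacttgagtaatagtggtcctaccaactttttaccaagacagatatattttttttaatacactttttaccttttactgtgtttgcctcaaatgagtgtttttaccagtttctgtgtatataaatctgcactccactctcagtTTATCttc
AAP6 (chr5:20146691-20146940, minus strand): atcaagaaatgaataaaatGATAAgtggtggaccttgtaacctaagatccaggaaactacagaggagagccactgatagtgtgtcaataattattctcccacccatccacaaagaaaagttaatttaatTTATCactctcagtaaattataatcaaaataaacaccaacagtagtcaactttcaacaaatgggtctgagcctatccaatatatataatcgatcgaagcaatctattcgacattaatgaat
LHT1 (chr5:16323317-16323566, plus strand): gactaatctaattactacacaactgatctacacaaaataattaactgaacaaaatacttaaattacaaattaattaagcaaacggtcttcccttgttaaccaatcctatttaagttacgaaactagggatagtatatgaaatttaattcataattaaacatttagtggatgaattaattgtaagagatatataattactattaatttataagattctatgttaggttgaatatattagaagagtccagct
The AAP3 and AAP6 windows each held 2 matches to GATAA, some of them on the other strand and so printed as TTATC. LHT1 held no match to any of the 4 words. GATAA was in the windows of 5 of 10 members, and in 54.9% of all windows. ATGTA was in 4 of 10 members, namely AAP5, AAP7, AAP8 and LHT2, and in 52.0% of all windows. None of those 4 was called higher or lower, but AAP8 was not tested, and AAP7 and LHT2 were at or under 2.78 FPKM. GCCGCC and CACGTG were in none of the 10, against 1.87% and 6.49% of all windows. A match to so short a word is only a description of these letters, and a window without one holds no statement about the factor.

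A pair of members carried most of the transcript of the permease family. AAP2 (AT5G09220, chr5:2866222-2869156, plus strand), a phloem permease known for moving amino acids from xylem to phloem, stood at 211 FPKM in air and 221 FPKM in ethylene. AAP1 (AT1G58360, chr1:21676388-21680519, plus strand), a permease of neutral amino acids and glutamate that acts in root uptake and in the embryo, stood at 96.2 FPKM in air and 98.9 FPKM in ethylene. Together they made up 83.4% of the summed AAP1 to AAP8 level in air and 77.6% in ethylene. The log2 ratio of ethylene to air was 0.07 ± 0.20 for AAP2 (SE; 95% interval -0.33 to 0.47) and 0.04 ± 0.21 for AAP1 (95% interval -0.37 to 0.45). Neither was called, with deposited q of 0.876 for AAP2 and 0.938 for AAP1 in the authors' deposited table. Here and below, the SE is the log2 ratio divided by the deposited statistic. Above the smallest deposited p, standard normal quantiles of the p-values were 1.43 times the statistic at the median. The 95% intervals are thus in general wider than the deposited p and q of such entries imply. Each condition has 1 FPKM value pooled from its libraries, so no spread between libraries can be given for a level.

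**Figure D2:**
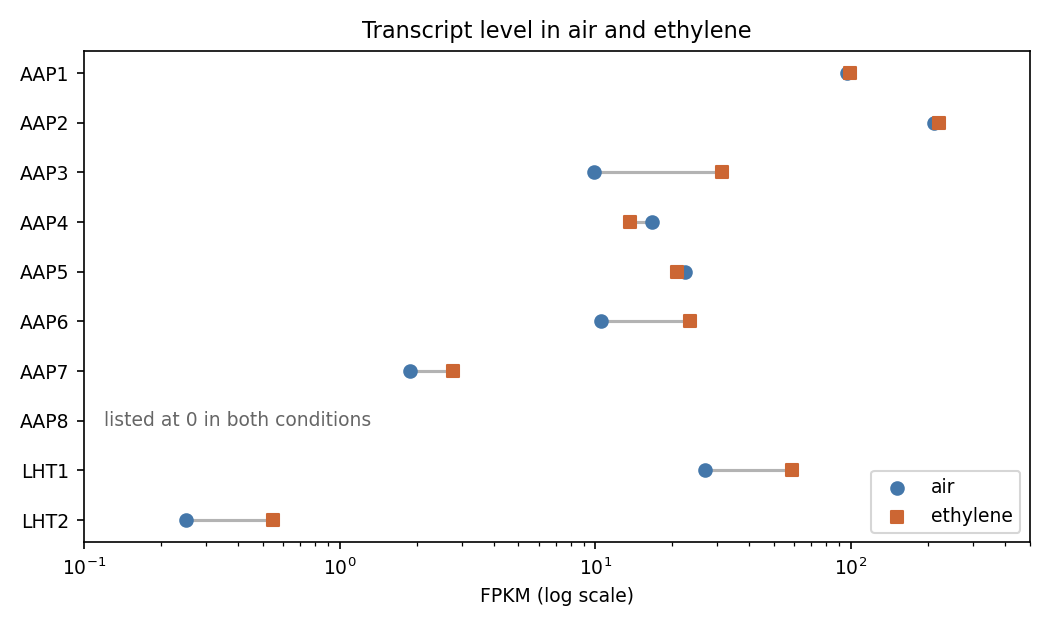
Transcript level of each member in FPKM on a log axis, with circles for air and squares for ethylene, each 1 value pooled by the authors from 2 libraries. The points of AAP3, AAP6 and LHT1 lie well apart, those of AAP1 and AAP2 nearly coincide, and AAP8, listed at 0 in both conditions, has no point.

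AAP3 and AAP6 were the members of the permease family called higher. AAP3 (AT1G77380, chr1:29074879-29077390, minus strand), a permease that also takes up basic amino acids and is known from the root vasculature, went from 9.90 FPKM in air to 31.3 FPKM in ethylene, 3.16-fold. Its log2 ratio was 1.66 ± 0.43 (SE; 95% interval 0.81 to 2.51). AAP6 (AT5G49630, chr5:20142430-20146690, minus strand), a high-affinity permease known from xylem parenchyma that also takes up aspartate, rose from 10.5 to 23.5 FPKM, 2.25-fold. Its log2 ratio was 1.17 ± 0.27 (SE; 95% interval 0.64 to 1.69). AAP3, AAP6 and LHT1 all had q = 0.000878 in the authors' deposited table, which is the lowest q that its smallest p of 5e-05 allows and was shared by 1200 tested entries, so they cannot be ranked by it. AAP3 and AAP6 together went from 5.52% of the summed AAP level in air to 13.3% in ethylene. The level of AAP2 was 21.4 times that of AAP3 in air and 7.08 times in ethylene.

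The other permeases were not called. AAP4 (AT5G63850, chr5:25550937-25553656, plus strand), the close relative of AAP2 known from vascular tissue and leaves, was at 16.7 FPKM in air and 13.7 FPKM in ethylene, with a log2 ratio of -0.28 ± 0.26 (SE; 95% interval -0.80 to 0.23). AAP5 (AT1G44100, chr1:16764392-16767685, minus strand), a root permease for basic amino acids, was at 22.5 and 20.9 FPKM, with a log2 ratio of -0.10 ± 0.24 (SE; 95% interval -0.58 to 0.37). Both intervals end below the log2 ratio of AAP6. A microRNA gene, AT1G07243, lies inside AAP5 on the same strand (chr1:16766259-16766438). AAP7 (AT5G23810, chr5:8028238-8030888, plus strand) was at 1.88 and 2.78 FPKM, and its interval of -0.49 to 1.62 on the log2 scale reaches past the ratio of AAP6. AAP8 (AT1G10010, chr1:3265886-3268823, plus strand), a permease of phloem and young seeds, was listed at 0 in both conditions and was not tested. The authors' deposited table gave q of 0.423 for AAP4, 0.829 for AAP5 and 0.432 for AAP7.

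LHT1 (AT5G40780, chr5:16323567-16327382, plus strand) was the third most abundant member in both conditions, and it was called higher in ethylene. Its level was 26.9 FPKM in air and 58.9 FPKM in ethylene, 2.19-fold, with a log2 ratio of 1.13 ± 0.23 (SE; 95% interval 0.69 to 1.57). LHT2 (AT1G24400, chr1:8651407-8653915, minus strand), known from floral tissue, was at 0.250 FPKM in air and 0.548 FPKM in ethylene. That is also a 2.19-fold difference, but its log2 ratio of 1.13 ± 1.29 had a 95% interval of -1.39 to 3.66 and it was not called, with q = 0.578 in the authors' deposited table. The level of LHT1 was 108 times that of LHT2 in air and 107 times in ethylene. These transcripts are the ones that share the run of 41 bases printed above, and whether reads of LHT1 were assigned to LHT2 was not tested.

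**Figure D3:**
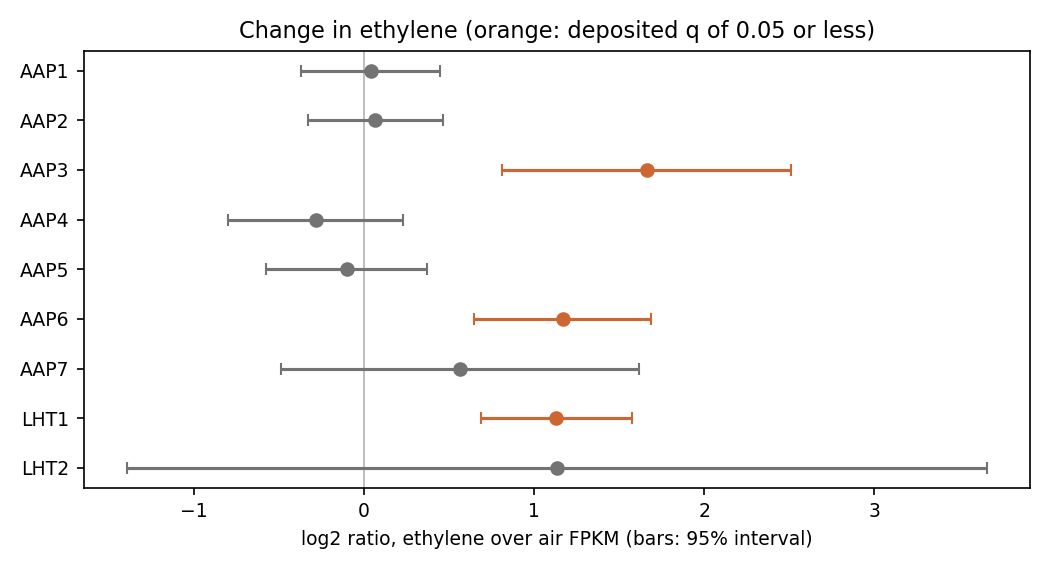
Log2 ratio of ethylene to air FPKM for the 9 tested members, with 95% intervals from the authors' deposited statistic; orange marks a deposited q of 0.05 or less. The intervals of AAP3, AAP6 and LHT1 lie above 0, and those of the other 6 span 0, LHT2 being the widest.

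Of the 9 tested members, 6 were not called, and 0 had a lower level in ethylene at an unadjusted p under 0.05 in the authors' deposited table. Among the 20786 tested entries that name a gene, 2347 were called (11.3%), 995 of them higher and 1352 lower. Since the members were chosen with these values known, their share is not read against that background. Called genes were more frequent at higher levels: among the 11720 tested entries with a mean of at least 10 FPKM, 15.2% were called, and 7 members, including the 3 called, were in that range. When the deposited statistic was instead read against a standard normal curve, a stricter reading, 1201 entries (5.78%) were called. On that reading AAP3, AAP6 and LHT1 were also called, with adjusted p of 0.00373, 0.000468 and 3.11e-05, from the statistic in the authors' deposited table. It re-reads the contrast that was known when the members were chosen, so it adds no support for them. The median log2 change, computed after adding 1 FPKM to both levels, was 0.31 over the 9 tested members. That is the value of LHT2, which was under 1 FPKM in both conditions and was not called. The median was 0.07 over the 7 tested AAP genes and 0.01 over all tested entries that name a gene. Larger increases than that of AAP3 were listed for 346 of those entries, than that of AAP6 for 663, and than that of LHT1 for 658.

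**Figure D4:**
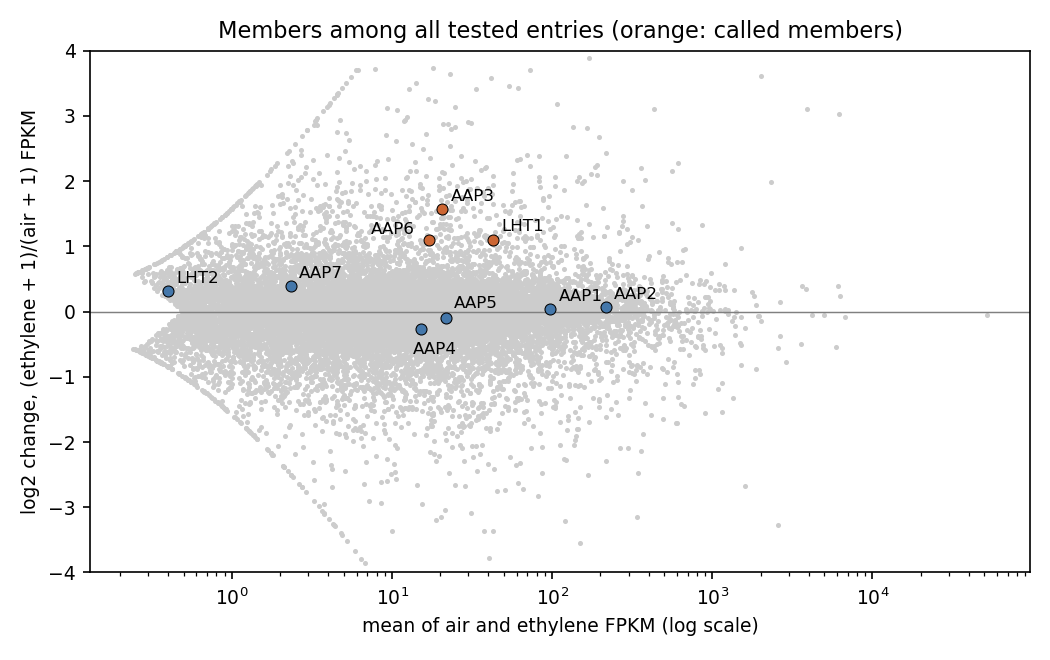
Log2 change, (ethylene + 1)/(air + 1) FPKM, against mean FPKM on a log axis for the 20786 tested entries that name a gene (grey), with the tested members in colour and the called ones in orange. AAP3, AAP6 and LHT1 sit at moderate levels above the bulk of the grey points; 105 entries beyond 4 in either direction are not drawn.

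The order of the members by level, which FPKM allows since it is per length, changed in its middle. In air the order was AAP2, AAP1, LHT1, AAP5, AAP4, AAP6, AAP3, AAP7, LHT2 and AAP8. In ethylene AAP3 and AAP6 stood above AAP5 and AAP4, and the remaining places were the same. The gap between neighbours was small for AAP6 over AAP3 in air, at 1.06 times, and for AAP6 over AAP5 in ethylene, at 1.12 times; without library values it cannot be said whether these neighbours differ. Summed over AAP1 to AAP8 the level was 369 FPKM in air and 413 FPKM in ethylene, a ratio of 1.12. Summed over LHT1 and LHT2 it was 27.1 and 59.4 FPKM, a ratio of 2.19.

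The genes next to the members were checked, since SRT2 lies close to AAP2. SRT2 starts 2208 bases beyond the end of AAP2 on the same strand of chromosome 5, with AT5G09225, a gene for an uncharacterized protein, in between. AT5G09225 was at 29.1 FPKM in air and 34.1 FPKM in ethylene and, like AAP2, was not called (q = 0.689 in the authors' deposited table). AAP3 and AT1G77370, a gene for a glutaredoxin family protein on the plus strand, overlap by 15 bases at their 3′ ends, and the table gives both genes a single span. AT1G77370 was at 78.4 FPKM in air and 63.2 FPKM in ethylene and was not called, so the listed levels of the overlapping genes lay in opposite directions. The sources used here do not say whether the counting used strand, and reads from the shared 15 bases cannot be assigned without it.

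Of the 20 genes flanking the members, 17 were tested, 2 were called higher and 2 lower, where 11.3% of all tested entries that name a gene were called. The stricter reading is not given for these genes. Both genes beside AAP1 were called higher while AAP1 was not: ZW18 from 13.1 to 18.2 FPKM and RXF12, for a glycosyl hydrolase, from 8.40 to 13.4 FPKM. Their q in the authors' deposited table was 0.0440 for ZW18, close to the threshold, and 0.00605 for RXF12. Beside AAP6, AT5G49640, for an uncharacterized protein, fell from 40.3 to 26.8 FPKM. AT5G23820, annotated as an MD2-related lipid recognition protein, begins 276 bases beyond the end of AAP7 and fell from 427 to 186 FPKM. Neither gene beside LHT1 and neither beside AAP3 was called.

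The other genes listed under amino acid transport were called in both directions, more of them lower than higher. Of 74 such genes in 6 lists, 58 were tested, 5 were called higher and 16 lower (36.2% called), and the median log2 change was -0.19. Not all of them are amino acid transporter genes. The lists also hold a ubiquitin ligase gene, genes of the polyamine uptake group and the auxin exporter gene WAT1. PUT5 of the polyamine uptake group and WAT1 were among the lower calls. Among all tested entries that name a gene 11.3% were called, and the median was 0.01. Lower calls outnumbered higher ones there too, at 6.50% against 4.79%. Under the stricter reading 3 of the 58 were called higher and 11 lower. Like the members, these lists were drawn up with results of the same table known, so no test was made of the difference between them and the members.

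Among 8 further LHT-type loci, 4 were tested and AT1G25530 was called higher, from 13.4 to 38.0 FPKM, 2.83-fold. Its protein shares 58.6% of residues with LHT1, less than the 79.7% of AT1G48640, which was at 0.427 FPKM in air and 1.23 FPKM in ethylene and did not pass the threshold. Of the 5 transporters of proline, γ-aminobutyric acid and aromatic and neutral amino acids, PROT1, a proline transporter, fell from 17.4 to 11.3 FPKM and the other 4 were not called; under the stricter reading 0 of the 5 were called. Among 18 further loci whose products the annotation gives as transmembrane amino acid transporter family proteins, AT2G41190 fell from 97.0 to 39.2 FPKM, AT5G02170 from 25.7 to 13.6 FPKM and AT5G65990 from 40.5 to 24.3 FPKM. AT3G56200 of the same list rose from 21.5 to 30.7 FPKM, a call that the stricter reading did not make. In that list 12 were tested and 8 not called.

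The cationic amino acid transporters and their relatives were called in 1 direction. Of 14 tested, 4 fell: CAT2 from 211 to 131 FPKM, CAT6 from 43.0 to 28.1 FPKM, CAT3 from 15.2 to 10.3 FPKM and PUT5, of the polyamine uptake group, from 30.5 to 18.7 FPKM. Under the stricter reading 1 of them, CAT2, was called. Exporters of the UMAMIT family, through which amino acids can leave cells, were called both ways among the 20 listed. These 20 are a part of the family, so the counts are those of the list. UMAMIT34 rose 4.92-fold, from 4.21 to 20.7 FPKM, UMAMIT4 rose from 18.7 to 35.4 FPKM, and UMAMIT36 rose from 3.63 to 7.60 FPKM. Another 5 of the 16 tested fell, among them WAT1, known as a vacuolar auxin exporter, from 289 to 104 FPKM, UMAMIT14 from 6.97 to 2.08 FPKM, UMAMIT17 from 42.7 to 19.3 FPKM and UMAMIT11 from 36.8 to 22.3 FPKM. Under the stricter reading UMAMIT36 was not called and 4 of the 5 lower genes were. Of the GLUTAMINE DUMPER genes and the ligase gene listed with them, whose small membrane proteins are known to increase amino acid export, 7 were tested and 3 fell. GDU1 fell from 27.3 to 8.64 FPKM, GDU4 from 38.0 to 16.8 FPKM and GDU3 from 111 to 58.8 FPKM.

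**Figure D5:**
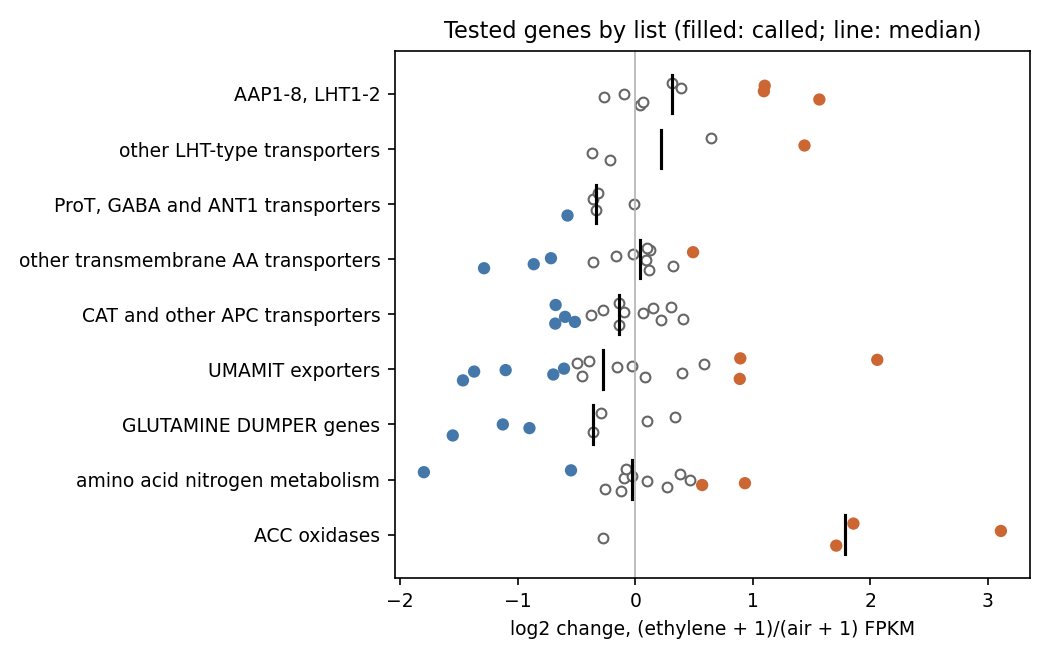
Log2 change, (ethylene + 1)/(air + 1) FPKM, of every tested gene in the members and in each list of related genes; filled points were called (orange higher, blue lower), open points were not, and black lines mark medians. The called members lie to the right of 0, while the called genes of the ProT, CAT and GLUTAMINE DUMPER lists lie to the left.

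In amino acid nitrogen metabolism, 13 of 14 genes were tested. Of all tested entries that name a gene, 4.79% were called higher and 6.50% lower. The cytosolic glutamine synthetase genes GSR2 (AT1G66200) and GSR 1 (AT5G37600) rose, the former from 181 to 348 FPKM and the latter from 112 to 166 FPKM. P5CS1 and P5CS2, which make the proline precursor pyrroline-5-carboxylate, fell, the former from 224 to 63.6 FPKM and the latter from 94.6 to 64.5 FPKM. The stricter reading called GSR2 and P5CS1 alone. The other 9 were not called. For ACC, the substrate that LHT1 and LHT2 carry, 3 of 4 ACC oxidase genes examined were called higher. EFE rose from 88.6 to 774 FPKM, AT1G77330 from 137 to 498 FPKM and ACO1 from 7.16 to 25.7 FPKM. ACC oxidase converts ACC to ethylene.

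Markers of the tissues where these transporters act were read in the same libraries. Beside the counts below, 4.79% of all tested entries that name a gene were called higher and 6.50% lower. Under the stricter reading 5.78% of those entries were called in either direction. Of 7 root hair markers, 6 were called higher, and their summed level was 73.4 FPKM in air and 134 FPKM in ethylene; the stricter reading called 4. Of 7 phloem markers, SUC2, the sucrose loader of companion cells, and the proton pump gene HA3 were called lower, the sieve element gene SEOa was called higher, and the sum went from 248 to 225 FPKM. Under the stricter reading SEOa alone was called. None of 6 xylem markers was called, and 0 had an unadjusted p under 0.05 in the authors' deposited table, with sums of 298 and 343 FPKM. Of 7 seed and embryo markers, 2 were called higher and 3 lower, with sums of 1076 and 718 FPKM; the stricter reading called 2 higher and 2 lower. No marker in these lists was at 0, but some were near it. The phloem marker PP2-A5, at 0.173 FPKM in air and 0.191 FPKM in ethylene, was not tested. SESA1 and SESA2, the seed markers called higher, were at 0.592 and 1.55 FPKM in air. The part of the cells these markers stand for in the levels of AAP3, AAP6 and LHT1 was not tested.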

How the data were processed

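RNA was sequenced from 4 libraries of srt1srt2 seedlings, 2 in air and 2 in ethylene. The submitters' processing notes name TopHat2 2.0.9, Cuffdiff 2.2.1 and TAIR10; the sources used here give no annotation, parameters or strand setting. The authors deposited 1 gene table with 1 FPKM value per condition pooled over 2 libraries, per the file headers. The deposited test statistic, a score per entry, and the p-values and q-values deposited beside it are from the authors' Cuffdiff test, per the file headers. The labels do not say whether libraries of a group came from separate plantings, so the spread behind these p-values may be technical.

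Members and lists were chosen with earlier results of these data known. Entries naming a locus alone were taken first, then the higher mean. Log2 ratios, log2 changes with a pseudocount of 1 FPKM, SE (log2 ratio divided by the statistic) and 95% intervals (1.96 SE) were computed with Python 3.11.15, pandas 2.3.3 and NumPy 2.4.6. The q column equalled Benjamini-Hochberg adjustment over 21076 tested entries within 5.25e-07. The statistic and p disagree: normal quantiles of the p-values exceeded it 1.43 times at the median, so a standard normal reference (SciPy 1.17.1) was an alternative. In 331 cells the statistic had been turned into text and was not used. Low FPKM values gave no whole-fragment steps, so depth per library is unknown and no interval that needs it is given. All members were named, and in each pathway list, though not in the marker lists, the called genes, at most 4 per direction by log2 ratio; 1 gene that the annotation does not describe as listed was dropped, and 1 listed gene is not reported here. Identity came from Biopython 1.88 alignments of translated TAIR10.1 coding sequences; all 26968 spans of entries naming 1 gene overlapped that gene in TAIR10.1. The calculations were tested on simulated data. The mean of 10 FPKM was set after seeing the data.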

Additional observations from a re-analysis of the deposited data

How the results depend on the processing

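None of the called members changed direction with no pseudocount, a pseudocount of 0.1 FPKM, division by summed FPKM or centring on the median log2 change. The log2 ratio of summed FPKM was -0.01 and that median was 0.01, so scaling and centring could not reverse changes of this size. A pseudocount added to both levels cannot reverse a direction either, so only the size is informative here. Over these alternatives the log2 change was 1.56 to 1.66 for AAP3, 1.09 to 1.17 for AAP6 and 1.09 to 1.13 for LHT1. Summing all entries of a locus changed nothing for the members, as none had multiple entries. The count of 3 members called higher and 0 lower was the same at a deposited q of 0.01 or less. It was also the same with the standard normal reference and with adjustment over entries of at least 1 FPKM in either condition. These settings re-read the contrast that was known when the members were chosen, so they add no support. With the standard normal reference, other lists had fewer calls: 0 proline, γ-aminobutyric acid and aromatic amino acid transporters and 1 cationic amino acid transporter were called lower, 0 of the 18 further transmembrane amino acid transporters were called higher, nitrogen metabolism had 1 higher and 1 lower, the UMAMIT genes had 2 higher and 4 lower, the seed markers 2 lower, the root hair markers 4 higher, the etiolated seedling markers 1 higher, and the phloem markers 1 higher and 0 lower. Tested entries under 1 FPKM in both conditions were also left out. The median log2 change then moved to 0.64 in the further LHT-type genes and to -0.39 in the UMAMIT genes. The 0.64 is the value of AT1G48640, which passed through its ethylene level alone, with 0.427 FPKM in air and 1.23 FPKM in ethylene. An entry can thus pass for being higher in 1 condition, so these medians are not read further. No paired analysis was possible because the table holds 1 pooled value per condition and its columns carry no library, and for that reason no library could be left out. The unknown depth limits LHT2, AAP7 and AAP8 most, since they were at or under 2.78 FPKM.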
